A study of Mus musculus with 2 samples.

Results

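The cytosolic ribosomal protein genes encode the proteins of the 40S and 60S ribosomal subunits. They were taken from the single-cell count table by symbol: Rpl or Rps with a number and at most the letters a, x, y, l or p, together with *Rpsa*, *Rplp0*, *Rplp1* and *Rplp2*, and without pseudogene symbols and the *Rps6k* kinases. The rule found 81 of the 32285 genes of the table, 31 of the small and 50 of the large subunit. The cells came from PSAPP mice, which carry APPswe/PS1δE9 transgenes and deposit amyloid in the brain. All mice were 9 months old at the start, and received either vehicle (VEH) or lemborexant (LEM, a dual orexin receptor antagonist that promotes sleep) by daily gavage for 30 days, LEM at 30 mg/kg. Each treatment gave 1 library, pooled from 5 mice of both sexes, of living CD45lo CD11b+ cells sorted from cortex and hippocampus, which is a gate for microglia. The VEH library held 18374 cells with a median of 5971 counts and the LEM library 24392 cells with a median of 6034. Every count is 1 captured transcript molecule, read at its 5′ end. With 1 library per treatment no difference between VEH and LEM can be tested, and the intervals given (95%, exact) cover counting error only, not the spread between mice. No wild-type mice are among the libraries, so nothing here compares amyloid-bearing with healthy brain.

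Ribosomal proteins are made in matched amounts, and their mRNAs are among the most abundant in any cell. In mammals these mRNAs begin with a cytidine and a stretch of pyrimidines at the cap, the 5′ terminal oligopyrimidine (TOP) motif. The mTOR kinase and the protein LARP1 act on the TOP motif to set how strongly the mRNAs are translated. Microglia are the resident macrophages of the brain. Around amyloid plaques they pass into a disease-associated (DAM) state, with genes such as *Cst7*, *Lpl* and *Itgax* raised.

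A run of the TOP kind at the annotated start was searched for, and is shown here for 4 members that have one. RefSeq promoter sequence (GRCm38.p6) was matched for 61 of the 81 genes. At any listed start, 13 of the 61 (21.3%) had C as the first base followed by at least 4 more C or T, against 813 of 27025 gene symbols (3.01%). Only the gene's own strand and only the annotated first base were searched. Each sequence runs from 15 bases before the start to 15 bases from it on, and capitals mark the pyrimidine run that opens the transcript. *Rps2*, printed last, has none at its annotated start and is shown because its counts stood apart below.
Rps10 (chr17:27635230-27635259, minus strand): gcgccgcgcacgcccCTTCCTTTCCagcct
Rpl35 (chr2:39005117-39005146, minus strand): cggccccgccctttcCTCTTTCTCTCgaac
Rpl38 (chr11:114668565-114668594, plus strand): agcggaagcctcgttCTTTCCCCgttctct
Rps18 (chr17:33955651-33955680, minus strand): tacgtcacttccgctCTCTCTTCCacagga
Rps2 (chr17:24720048-24720077, plus strand): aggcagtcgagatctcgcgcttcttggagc
The 13 genes with a run had a median log2 ratio of LEM over VEH of 0.09, as did the 45 detected genes with an entry and no run (0.09).

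Together the 81 genes took 4.95% of all counts in VEH (4.95–4.96) and 5.17% in LEM (5.16–5.17). The median cell gave 4.60% of its counts to them in VEH and 4.82% in LEM, with 5% of cells below 0.596% and 0.900% and 5% above 8.26% and 8.67%. Counts were present in 10% or more of the cells of a library for 78 of the 81 genes, called detected here. The median gene stood at 603 counts per 1e6 (CPM) averaged over the libraries, and the 10 most abundant supplied 23.8% of the family's counts in VEH and 24.0% in LEM. Because each transcript gives 1 count at its 5′ end, the counts were not divided by length.

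Among the small-subunit genes the most abundant was *Rps29*, at 1661 CPM in VEH and 1680 CPM in LEM. *Rps9* stood at 1289 and 1479 CPM, and *Rps24* at 1234 and 1333 CPM. The most abundant gene of the large-subunit body was *Rpl13*, at 1251 CPM in VEH and 1343 CPM in LEM. The P stalk, the flexible arm of the large subunit that recruits translation factors, was uneven: *Rplp1* had 1283 and 1186 CPM, *Rplp0* 775 and 814 CPM, and *Rplp2* 567 and 610 CPM. Across the 81 genes the order of levels was nearly the same in both libraries (Spearman's rho 0.989, a description across genes).

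**Figure D1:**
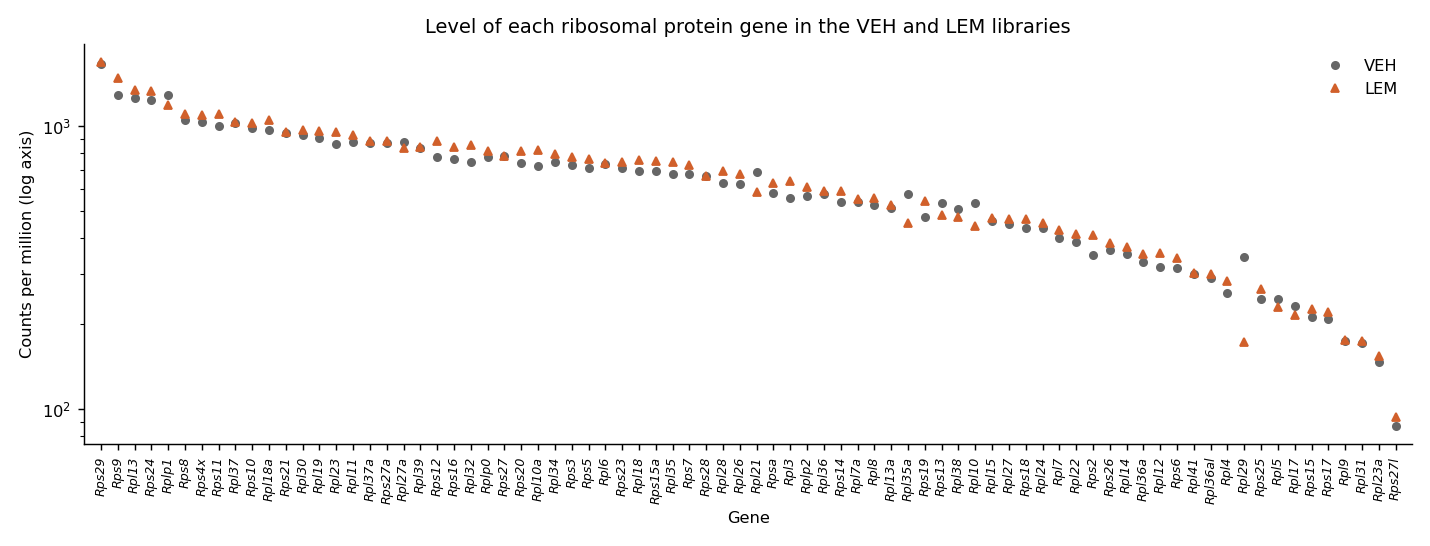
Level of the 78 members that passed the detection minimum, in CPM on a log axis, in the VEH library (circles) and the LEM library (triangles), ordered by level. The points of a gene lie close together for most of the family, from *Rps29* at 1661 and 1680 CPM to *Rps27l* at 86.9 and 93.4 CPM, and *Rpl29* is set apart at 344 and 172 CPM.

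The lowest levels belonged mostly to paralogs. *Rps27l*, a close relative of *Rps27* known as a target of p53, had 86.9 CPM in VEH and 93.4 CPM in LEM, while *Rps27* had 780 and 782 CPM. *Rpl23a*, a core large-subunit gene, had 147 and 154 CPM. *Rpl39l* was found at 125 counts in VEH (1.08 CPM, 0.895–1.28) and 204 counts in LEM (1.27 CPM, 1.10–1.46), against 835 and 845 CPM for its parent *Rpl39*. *Rpl3l*, the striated-muscle form of *Rpl3*, had 3 and 7 counts. *Rpl10l*, an *Rpl10* retrogene active in testis, had 0 counts in both libraries, which in VEH allows up to 3 of 116229678 counts. In each of these pairs the housekeeping form had the higher level. *Rpl36al* was different, at 289 and 298 CPM close to *Rpl36a* at 331 and 352 CPM.

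The 4 X-linked members, *Rpl39*, *Rpl10*, *Rps4x* and *Rpl36a*, allowed a comparison by sex. Cells were called female from *Xist* and male from Y-linked counts, giving 5686 female and 9025 male cells in VEH and 8409 and 11223 in LEM. Cells with neither, 2682 in VEH and 2996 in LEM, had family shares of 5.41% and 5.86% at median depths of 3696 and 4105 counts. Those with both had 4.695% and 5.05%. *Rps4x*, for which mice have no Y-linked partner, was at 1060 CPM in female and 1005 CPM in male VEH cells, and at 1129 and 1058 CPM in LEM. Female over male ratios of the 4 genes ran from 0.01 to 0.08 on the log2 scale in VEH and from 0.07 to 0.12 in LEM. The whole family had medians of 0.03 and 0.10 in the same contrasts, so the X-linked genes lay within its range. Over the family, female cells of VEH had 0 members at least 1.2-fold above male cells (background 4.67%) and 2 below (background 2.59%), namely *Rps2* and *Rps18*. In LEM *Rps2* was above (background 2.95%) and *Rpl29* below (background 2.62%).

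LEM over VEH was the comparison of treatment. Of the 78 detected genes 67 had a higher CPM in LEM and 11 a lower one. Their median log2 ratio was 0.09, from −1.004 to 0.24, while the median of all 7526 genes that passed the same detection minimum was 0.01. No member was at least 1.2-fold higher in LEM (background, 2.05% of all genes tested) and 3 were at least 1.2-fold lower (3.85% of the 78, background 1.97%). For the share of all counts the log2 ratio was 0.06 (0.06–0.06). The sexes did not give the same size: the share was 4.97% in VEH and 5.34% in LEM for female cells (log2 ratio 0.10), and 4.90% and 4.95% for male cells (0.02). By member, 66 were higher and 12 lower in LEM in female cells, and 52 and 26 in male cells. Regardless of sign, the median ratio was 0.13 in female cells (0.08 over all genes tested) and 0.063 in male cells (0.064). Within female cells 2 members were at least 1.2-fold higher (*Rps2* and *Rps18*, background 3.38%) and 2 lower (*Rpl29* and *Rpl35a*, background 4.33%). Within male cells 0 were higher (background 3.24%) and 5 lower (background 2.31%). A difference of this size between single pools has no replicate check. By subunit, 29 of 31 small-subunit genes were higher in LEM (median 0.10), 36 of 44 large-subunit genes without the P stalk (median 0.06) and 2 of 3 P-stalk genes. The same counts were 28, 36 and 2 in female cells, and 25, 25 and 2 in male cells.

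The 5 highest ratios were those of *Rps2*, *Rpl3*, *Rps9*, *Rpl32* and *Rps19*. *Rps9*, a protein of the mRNA entry channel, stood at 1295 CPM in female VEH and 1506 CPM in female LEM cells, and at 1277 and 1437 CPM in male cells. *Rpl3*, which reaches toward the peptidyl transferase centre, had 581 CPM in female VEH and 625 CPM in female LEM cells, against 537 and 644 CPM in male cells. *Rpl32* had a ratio of 0.20 (0.18–0.21) and *Rps19*, mutated in Diamond-Blackfan anaemia, 0.19 (0.18–0.21), and the ratio of either gene was 0.18 in both sexes. In these 4 genes LEM was above VEH in both sexes.

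*Rpl29* was the member that stood farthest from the family. It sits on chromosome 9 (106429454–106431568, plus strand, GRCm38) and encodes a large-subunit protein. Its level was 328 CPM in female and 351 CPM in male VEH cells, and 148 CPM in female and 186 CPM in male LEM cells. All LEM values therefore lay below all VEH values, with a log2 ratio of −1.004 (−1.03 to −0.98). A count was present in 74.4% of VEH and 57.6% of LEM cells, and in 45.2% and 26.5% after every cell was thinned to 2000 counts. By gate the ratio was −1.01 in homeostatic cells, −1.03 in intermediate cells, −1.09 in the DAM gate, −1.004 in the interferon gate and −0.996 in the choroid plexus gate. In the smaller S-phase gate *Rpl29* stood at 348 CPM in VEH and 196 CPM in LEM, and in the MHC class II gate at 638 and 283 CPM. It had 438 and 236 CPM in the BAM gate and 312 and 165 CPM in G2/M cells. The cells that met no gate differed least, at 281 CPM in VEH (174 cells) and 264 CPM in LEM (259 cells). The 12 detected genes whose starts lay within 600 kb of it had ratios from −0.24 to 0.17.

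*Rpl35a*, *Rpl10*, *Rpl21* and *Rps13* followed at the low end. *Rpl35a* had 565 CPM in female and 573 CPM in male VEH cells against 466 and 439 CPM in LEM (log2 ratio −0.33, −0.35 to −0.32). *Rpl10*, which joins the 60S subunit late in its maturation, had 537 and 533 CPM in VEH against 462 and 425 CPM in LEM (−0.27, −0.29 to −0.26). *Rpl21* had 660 and 697 CPM against 600 and 564 CPM (−0.23, −0.24 to −0.22), and *Rps13* 541 and 531 CPM against 495 and 464 CPM (−0.15, −0.17 to −0.13). As for *Rpl29*, the female and the male cells gave the same direction in all 4.

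*Rps2* looked like the member highest in LEM, but its total hid opposite directions in the sexes. It sits on chromosome 17 (24718116–24721929, plus strand, GRCm38) and encodes a protein at the mRNA entry side of the small subunit. Its level was 172 CPM in female and 460 CPM in male VEH cells, and 544 CPM in female and 309 CPM in male LEM cells. LEM over VEH was thus 1.66 (1.62–1.70) in female and −0.58 (−0.60 to −0.55) in male cells, and 0.24 when pooled. Female over male was −1.42 in VEH and 0.82 in LEM. The signs were the same within homeostatic cells (−1.41 and 0.77), the intermediate gate (−1.42 and 0.90) and the DAM gate (−1.48 and 0.66). Among cells of 6000 to 8000 counts, 44.1% of female VEH cells (41.7–46.5) held no *Rps2* count, against 7.52% of male VEH, 6.22% of female LEM and 22.8% of male LEM cells. The sexes in each pool are also different mice, and sex cannot be told apart from the particular animals pooled.

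*Rps18*, which lies on the same chromosome (33951999–33956001, minus strand) and contacts the head of the small subunit, had the same shape at a smaller size. It stood at 385 CPM in female and 466 CPM in male VEH cells, and at 505 and 439 CPM in LEM, so that LEM over VEH was 0.39 (0.36–0.42) in female and −0.09 (−0.11 to −0.06) in male cells. *Gm10260*, on chromosome 13 and named *Rps18-ps6* by RefSeq, shares 72.1% of its coding 31-base words. Whether counts of one belong to the other was not tested. *Gm10260* had the opposite order, at 48.8 CPM in female and 8.85 CPM in male VEH cells, and 22.1 and 39.1 CPM in LEM. With its copies in the table added, *Rps18* came to 434 and 476 CPM in VEH and 527 and 478 CPM in LEM, so that male LEM cells were no longer below male VEH cells. Female over male went from −0.28 to −0.13 in VEH and from 0.20 to 0.14 in LEM.

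The other members on chromosome 17 did not share this. *Rps10*, *Rpl10a*, *Rps28* and *Rpl36* had female over male ratios of 0.03 to 0.05 in VEH and 0.07 to 0.11 in LEM. The 29 detected genes within 600 kb of *Rps2* ran from −0.33 to 0.27 in VEH and from −0.19 to 0.23 in LEM. Among these neighbours *Atp6v0c* had the signs of *Rps2* (−0.33 in VEH and 0.23 in LEM), and *Ift140* the reverse (0.27 and −0.15). Farther along the chromosome other genes had opposite sex ratios that passed 1.2-fold in both libraries. Of all 7521 genes tested, 82 were at least 1.2-fold apart between the sexes in opposite directions in the libraries (1.09%), and on chromosome 17 these were 17 of 387 (4.39%). They included *Rnaset2b* (start at 6970634), named after its values were seen (−1.73 in VEH and 0.80 in LEM), and *H2-DMa*, an antigen-loading gene within 600 kb of *Rps18* (−1.34 and 1.04). Of the 17, 10 were lower in female VEH and higher in female LEM cells, as *Rps2* was, and 7 had the reverse order, among them *Qpct* (3.92 and −0.59) and *Ccr6* (1.26 and −1.03). What the mice in each pool carried on this chromosome was not tested.

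**Figure D2:**
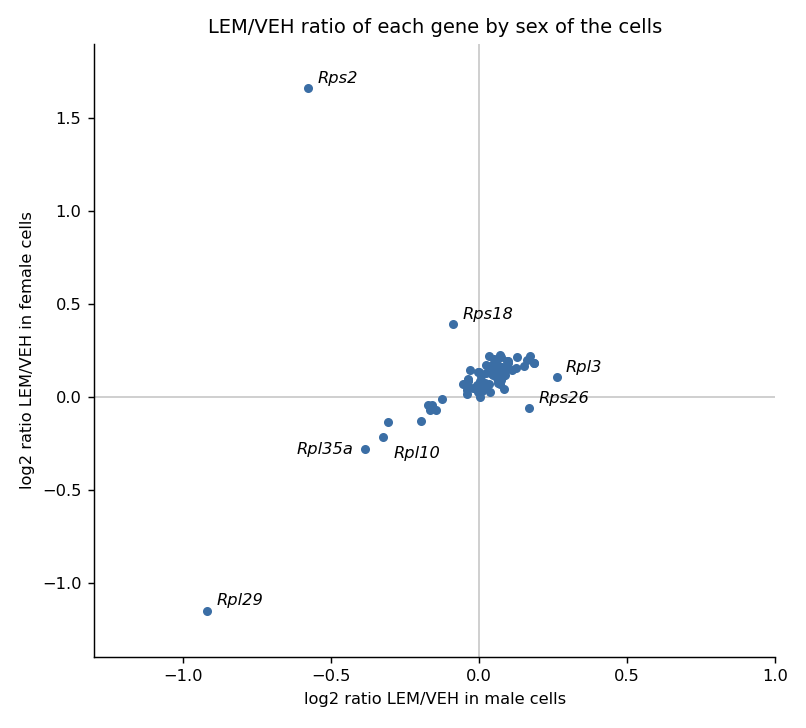
log2 ratio of LEM over VEH for each of the 78 detected genes in male cells (horizontal) and female cells (vertical). Most genes cluster near 0 on both axes, with 66 above 0 in female and 52 in male cells. *Rpl29* is low in both (−0.92 and −1.15), and *Rps2* lies alone in the upper left (−0.58 in male and 1.66 in female cells) with *Rps18* below it.

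Near-identical copies are a known feature of this family, and they bear on which reads can be assigned to a gene. In the GENCODE annotation 66 of the 81 members had at least 1 other gene that shares 50% or more of the 31-base words of their coding sequence, with a median of 3 and up to 19. For 9 members the table counts such a copy, in 10 pairs. The 5 members with the lowest ratios had many: 19 for *Rpl21*, 12 for *Rpl29*, 9 for *Rpl35a*, 8 for *Rpl10* and 5 for *Rps13*. The highest ratios belonged to members with few: none for *Rpl32* and *Rps19*, 1 for *Rps9* and 4 for *Rpl3*, with *Rps2* as the exception at 14. Each of the 12 detected members without a copy was higher in LEM, from 0.00 to 0.20. Members with 5 or more copies numbered 20 and ran from −1.004 to 0.24, with 6 below 0. Across the 78 genes the number of copies and the LEM over VEH ratio had a Spearman's rho of −0.33, against −0.17 for the number of copies and the level. The part of read assignment in these ratios was not tested.

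**Figure D3:**
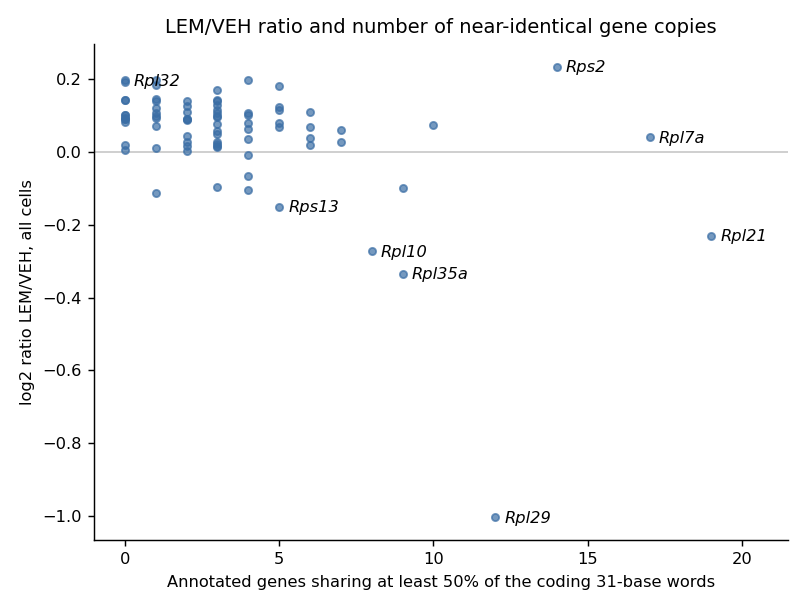
log2 ratio of LEM over VEH of the 78 detected genes against the number of annotated genes that share at least 50% of their coding 31-base words. Genes without copies lie between 0.00 and 0.20, and the lowest values, *Rpl29* at −1.004 and *Rpl35a* at −0.33, belong to genes with 12 and 9 copies.

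Of the 5 low members, *Rpl10*, *Rpl21* and *Rpl29* have a copy that the table counts, and *Rpl35a* and *Rps13* have none there. *Rpl10* with *Rpl10-ps3*, which holds all of its coding words and had 106 CPM in VEH and 100 CPM in LEM, had a ratio of −0.24. *Rpl21* with *BC004004* had −0.20. Of the 12 copies of *Rpl29* the table counts only 1, *Gm3550*, at 6 VEH counts against 7 LEM counts. Adding *Gm3550* left the *Rpl29* ratio at −1.004. How reads were assigned between *Rpl29* and its copies was not tested. *Rpl9* had 173 and 175 CPM, while *Rpl9-ps6*, with 94.3% of its coding words, had 642 and 686 CPM. Whether these counts came from *Rpl9* transcripts was not tested.

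The family differed more between cell states than between treatments, as far as single libraries show. Cells were gated on raw counts of marker genes that are no members. DAM cells held at least 3 of 6 genes (*Cst7*, *Lpl*, *Itgax*, *Spp1*, *Gpnmb*, *Fabp5*), intermediate cells 1 or 2 of them, and homeostatic cells none of them but *P2ry12*. A cell took the first gate it met, in the order choroid plexus, border-associated macrophage, G2/M, S phase, interferon, MHC class II, DAM, intermediate, homeostatic. The DAM gate therefore left out cells that had met an earlier one. The 5 microglial genes checked (*Ctss*, *C1qa*, *C1qb*, *Cx3cr1*, *P2ry12*) were each found in at least 98.4% of the cells of either library. Summed markers of astrocytes, neurons and T and B cells stood at or below 2.37 CPM, those of endothelium at 13.2 and 10.1 CPM, and those of oligodendrocytes at 57.8 and 61.7 CPM. Choroid plexus markers beside *Ttr* stood at 36.7 CPM in VEH and 102 CPM in LEM.

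In homeostatic cells the family took 4.57% of counts in VEH (14309 cells) and 4.80% in LEM (17640 cells). Intermediate cells gave 5.39% and 5.45%. In them 22 members in VEH and 0 in LEM were at least 1.2-fold higher (background, 2.86% and 1.73%). The medians were closer than these counts, at 0.23 and 0.19, with all 78 above 0 in both libraries, and none was 1.2-fold lower (background, 2.57% and 0.841%). In the DAM gate the share was 8.52% in VEH (354 cells) and 8.40% in LEM (511 cells), a fold of 1.86 and 1.75 over homeostatic cells and a log2 ratio of 0.90 (0.89–0.90) and 0.81 (0.80–0.81). Male and female cells gave 0.91 and 0.90 in VEH and 0.84 and 0.76 in LEM. All 78 detected members were at least 1.2-fold higher in the DAM gate of either library (background, 14.0% of genes in VEH and 13.7% in LEM), with medians of 0.86 and 0.78 where the median gene was at −0.23 and −0.24. DAM cells were deeper, with medians of 10783 and 10940 counts against 5687 and 5738 in homeostatic cells. Among cells of 8000 to 12000 counts the share was 8.38% in DAM and 4.80% in homeostatic VEH cells, and 8.48% and 4.998% in LEM. *Malat1* stood at 4766 CPM in DAM and 8943 CPM in homeostatic VEH cells, and at 4280 and 8697 CPM in LEM. The median mitochondrial share was 0.857% and 0.604% in VEH, and 0.922% and 0.627% in LEM. The part of depth and RNA quality in the DAM values was not tested.

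Cells with at least 10 counts of the MHC class II genes *H2-Aa*, *H2-Ab1* and *H2-Eb1* were highest of all the gates, at 9.33% in VEH (185 cells) and 8.76% in LEM (152 cells). In them too all 78 members were at least 1.2-fold above homeostatic cells (background, 13.6% and 14.2%). This gate overlaps the DAM state, since the 6 DAM genes summed to 2760 and 3054 CPM in it and to 2094 and 1807 CPM in the DAM gate itself. Its *Malat1* level was 4488 and 4353 CPM and its median mitochondrial share 0.963% and 0.985%. The 7 BAM genes summed to 61.6 and 73.8 CPM in it, against 2.85 and 2.16 CPM in homeostatic cells. Cells gated as border-associated macrophages (BAM) on at least 3 of 7 genes such as *Mrc1*, *Pf4* and *Ms4a7* had 7.16% in VEH and 7.77% in LEM, in 25 and 68 cells. The 5 microglial genes summed to 25269 and 24294 CPM in the BAM gate, against 28115 and 28687 CPM in homeostatic cells. *P2ry12* alone stood at 2446 and 2033 CPM, against 4566 and 4411 CPM. The part of microglial RNA in the BAM values was not tested. The MHC class II genes summed to 13403 and 11662 CPM in the BAM gate, above the 4652 and 5867 CPM of the gate named for them. There 77 and 76 members were at least 1.2-fold higher (background, 32.8% and 24.5%).

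No member was at least 1.2-fold lower than in homeostatic cells in the DAM gate (background, 47.0% in VEH and 47.8% in LEM), the MHC class II gate (53.6% and 52.6%) or the BAM gate (33.8% and 33.3%).

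The smaller shifts were those of the interferon gate (5.44% in VEH and 5.88% in LEM) and of cells with S-phase genes (5.17% and 5.58%). In the interferon gate 31 and 55 members were at least 1.2-fold higher (background, 9.88% and 8.97%). The 6 DAM genes summed to 473 and 383 CPM there, against 277 and 250 CPM in intermediate cells, and the MHC class II genes to 567 and 133 CPM. Their part in the interferon values was not tested. The 6 DAM genes summed to 196 and 356 CPM in the S-phase gate, and their part there was not tested. In that gate 16 and 31 members were at least 1.2-fold higher (background, 24.6% and 19.9%). The VEH share of 20.5% was below the background and the LEM share of 39.7% above it. None was at least 1.2-fold lower in the S-phase gate (background, 16.4% and 12.7%) or the interferon gate (background, 20.5% in both libraries). Cells with at least 50 *Ttr* counts, which marks the choroid plexus epithelium, gave 5.70% and 5.27%. There 48 and 23 members were at least 1.2-fold higher (background, 24.6% and 21.8%), and 0 and 1 lower (background, 45.6% and 57.3%). The 5 microglial genes summed to 18883 and 15044 CPM in that gate, against 28115 and 28687 CPM in homeostatic cells, so the gate also held microglial RNA. Its median mitochondrial share was 1.13% and 1.19%, against 0.604% and 0.627% in homeostatic cells. Its *Malat1* level was 5232 and 3737 CPM, against 8943 and 8697 CPM. *Ttr*, the gating gene, took 88696 CPM in VEH and 150342 CPM in LEM there, and it was kept in the totals. The part of *Ttr* and of RNA quality in the shares and member counts of this gate was not tested.

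Cells with G2/M genes went the other way, at 4.08% in VEH (145 cells) and 4.46% in LEM (213 cells), log2 ratios of −0.16 and −0.11 over homeostatic cells although their median depth was 9821 and 10082 counts. *Malat1* stood at 4878 and 4637 CPM there, against 8943 and 8697 CPM in homeostatic cells, and the 6 DAM genes summed to 261 and 413 CPM. The part of RNA quality and DAM cells in the G2/M values was not tested. By gene, 27 and 16 members were at least 1.2-fold lower there (34.6% and 20.5% of the 78, background 26.7% and 25.7%), which is near the background. Members at least 1.2-fold higher numbered 5 and 8 (background, 38.7% and 37.3%). The spread among members was widest in this gate. *Rps27l* stood at 177 and 223 CPM in G2/M against 81.3 and 85.7 CPM in homeostatic cells (1.12 and 1.38), *Rps19* at 0.67 and 0.68 and *Rpsa*, which doubles as the laminin receptor precursor, at 0.58 and 0.54. *Rps27* was at −0.69 and −0.64 and *Rpl10* at −0.69 and −0.67. Thus *Rps27* and *Rps27l* went in opposite directions in both libraries.

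**Figure D4:**
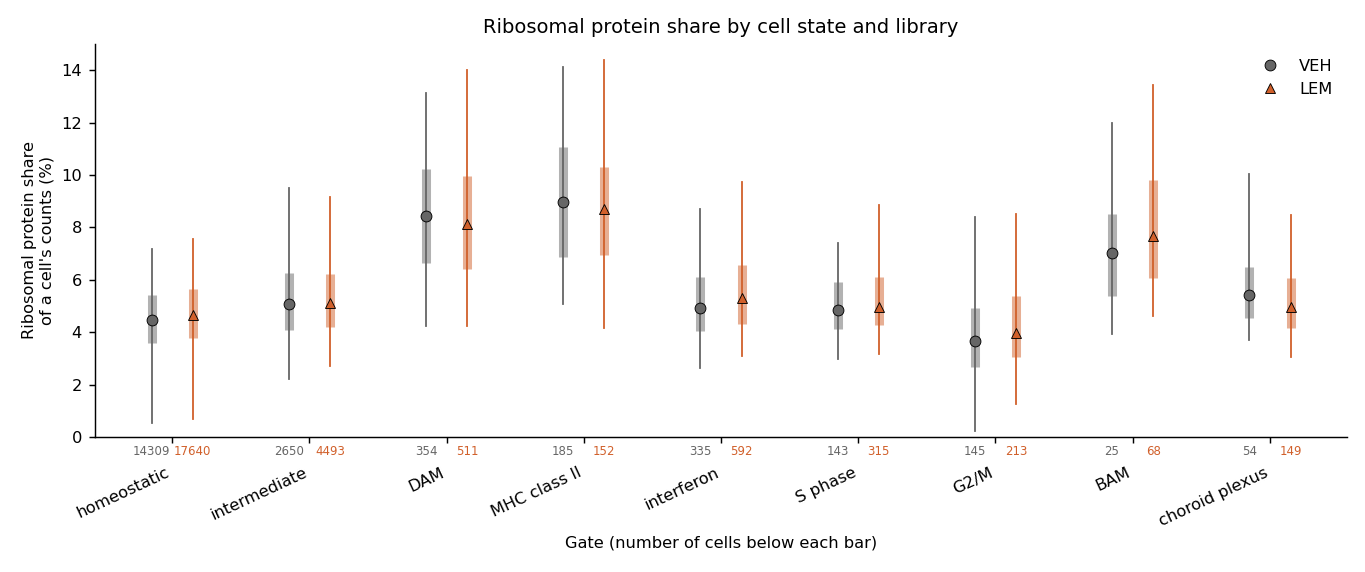
Share of a cell's counts from the 81 genes by gate, in VEH (circles) and LEM (triangles). Symbols are medians over cells, thick bars the middle 50% and thin lines the 5th to 95th percentiles, with cell numbers below. DAM, MHC class II and BAM cells lie highest, with VEH medians of 8.42%, 8.98% and 7.03%, and G2/M cells had a VEH median of 3.66%.

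A few members recurred at the ends of these rankings. *Rpl41*, the shortest ribosomal protein, was among the 3 highest ratios in both libraries in the DAM gate (1.204 and 1.16), the MHC class II gate (1.37 and 1.19), the choroid plexus gate (1.23 and 1.27) and the intermediate gate (0.31 and 0.25). *Rpl36al* was among the 3 lowest in the DAM (0.47 and 0.50), MHC class II (0.43 and 0.47) and BAM gates (0.27 and 0.23). *Rpl10* was also low in the DAM gate (0.57 and 0.49). *Rps28* was among the highest in BAM (0.95 and 1.01), *Rps27l* in the choroid plexus gate (0.96 and 1.19) and *Rpsa* in the S-phase gate (0.56 and 0.63), where *Rps27* was among the lowest (−0.16 and −0.04). *Rps27l* was among the lowest in intermediate cells (0.15 and 0.09). Small-subunit over large-subunit counts were 0.777 in homeostatic and 0.775 in DAM cells of VEH, and 0.806 and 0.801 in LEM. The same ratio was 0.810 and 0.862 in the BAM gate and 0.753 and 0.763 in the choroid plexus gate.

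Within homeostatic and intermediate cells, those with at least 20 counts of the chemokines *Ccl3* and *Ccl4* gave 5.40% in VEH and 5.53% in LEM, log2 ratios of 0.24 and 0.20 over homeostatic cells, at median depths of 7459 and 7525 counts. Intermediate cells as a whole stood at 0.24 and 0.18 over homeostatic cells, and the mix of homeostatic and intermediate cells was not matched. Immediate early genes mark handling and dissociation as well as activation. Cells in the top 5% by the share of their counts from these genes were also looked at within the same gates. In them the family took 4.51% of counts in VEH and 4.55% in LEM, at median depths of 4976 and 4522 counts. Of all cells, 6.86% of VEH and 3.60% of LEM lay in that top 5%.

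Share differed with depth, though not in 1 direction throughout. The median share was 4.07% in VEH and 4.696% in LEM under 2000 counts, and 3.97% in VEH and 4.15% in LEM at 2000 to 4000 counts, 4.77% and 4.99% at 6000 to 8000 counts, and 4.99% and 5.12% at 12000 to 20000 counts. By the median LEM was above VEH in each of the 6 depth bins. By summed counts it was above in 5, and at 12000 to 20000 counts VEH had 5.699% and LEM 5.685%. The summed share under 2000 counts was 4.56% in VEH and 5.73% in LEM, the highest LEM bin. In homeostatic cells alone the median peaked at 8000 to 12000 counts in VEH (4.75%) and at 6000 to 8000 counts in LEM (4.94%).

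The distribution over cells had a second, low mode. Below 2% lay 1449 VEH cells (7.89%) and 1542 LEM cells (6.32%), with a median share of 0.465% and 0.478%. The value of 2% was set after the distribution was seen, and 237 cells lay from 1.5% to 2% and 605 from 2% to 2.5%, against 1683 from 0.25% to 0.75%. The low cells were shallower, with medians of 3279 and 3108 counts against 6172 and 6199 for the rest. The nuclear RNA *Malat1* was at 17724 CPM in VEH and 17016 CPM in LEM against 7988 and 7830 CPM in the other cells, and *Neat1*, also nuclear, at 575 and 426 CPM against 138 and 117 CPM. Of the microglial genes, *P2ry12* was at 1736 and 1889 CPM against 4409 and 4175 CPM, and *Csf1r* at 2647 and 2755 CPM against 3278 and 3267 CPM. *Cst3*, the most abundant of those looked at, was at 10208 and 9706 CPM against 66874 and 58698 CPM. The short, abundant mRNA of *Tmsb4x* was at 736 and 771 CPM against 6225 and 5930 CPM. The median mitochondrial share was 0.636% and 0.825%, against 0.620% and 0.644%. Female cells made up 32.4% and 35.9% of the low cells and 30.8% and 34.4% of the others. By gate the low cells were 8.42% and 7.24% of homeostatic cells, 10.3% and 7.51% of G2/M cells and 0.847% and 0.587% of DAM cells. At 8000 to 12000 counts the low cells were 2.12% of homeostatic and 0.833% of DAM cells in VEH, and 0.771% and 0% in LEM. They were most frequent among the cells that met no gate, at 54.6% of 174 VEH and 33.2% of 259 LEM cells, whose median depth was 1634 and 1493 counts. These cells were spread widely, with a median share of 1.08% and an upper quartile of 8.92% in VEH, and 8.05% and 10.8% in LEM. The part of RNA quality in these shares was not tested.

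**Figure D5:**
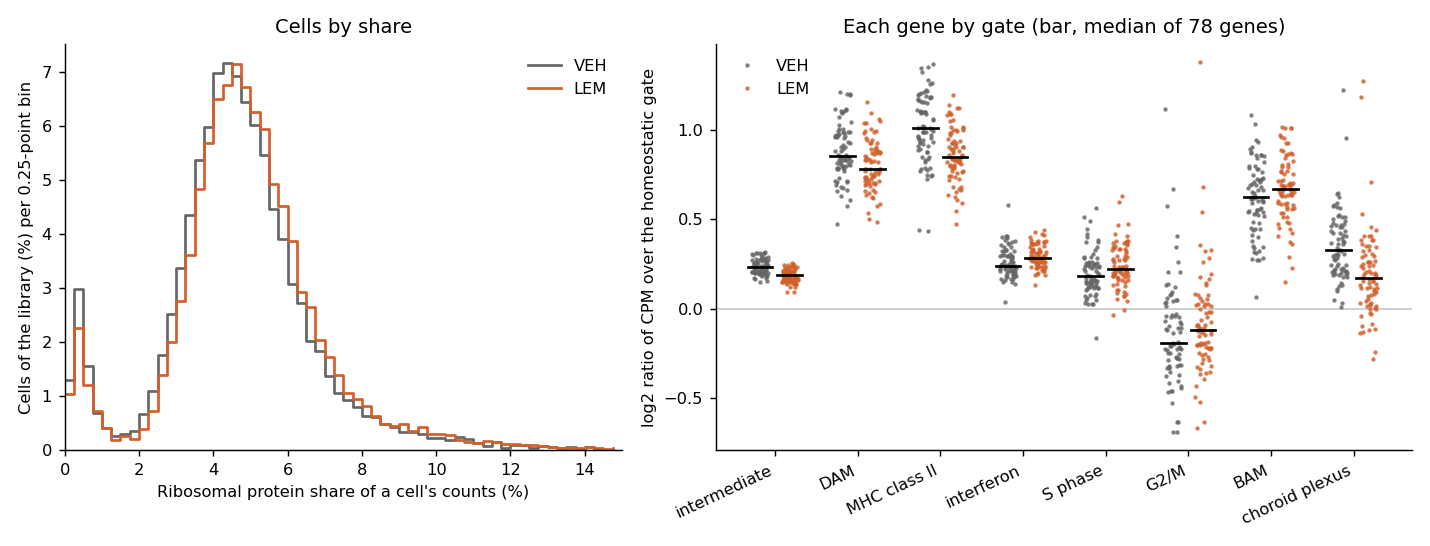
Left, cells of each library by the share of their counts from the 81 genes in bins of 0.25 percentage points (VEH grey, LEM orange), with a main mode near the medians of 4.60% and 4.82% and a second mode below 2%. Right, log2 ratio of each of the 78 detected genes over homeostatic cells by gate, with bars at the medians (0.86 and 0.78 in the DAM gate).

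A further 6 ribosomal genes listed here fall outside the symbol rule. *Fau*, which encodes the small-subunit protein eS30 fused to a ubiquitin-like domain, had 1936 CPM in VEH and 2009 CPM in LEM, above every member. *Rps3a1* had 848 and 903 CPM, and the 40S scaffold *Rack1* 293 and 318 CPM. *Rpl22l1* had 175 and 179 CPM, *Rpl7l1* 73.6 and 73.5 CPM and *Rps27rt* 6.08 and 6.97 CPM. With them the family's share was 5.29% and 5.52%. In the DAM gate *Fau* was at 0.94 and 0.85, *Rack1* at 0.82 and 0.76, *Rps3a1* at 0.76 and 0.65 and *Rpl22l1* at 0.74 and 0.78. *Rpl7l1*, whose protein acts in ribosome assembly, was at −0.62 and −0.31.

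Other genes of translation were taken by role. All 15 listed genes with TOP-class mRNAs, among them the elongation factor *Eef1a1* and the translationally controlled tumour protein *Tpt1*, were at least 1.2-fold higher in the DAM gate of both libraries (background, 14.0% and 13.7%), with medians of 0.58 and 0.57. *Eef1a1* stood at 0.88 and 0.80 and *Tpt1* at 0.81 and 0.70. Of the 18 detected genes of ribosome biogenesis 2 were at least 1.2-fold higher in each library, near that background. Another 2 were lower (background, 47.0% and 47.8%), and the medians were 0.02 and −0.05. *Nop56*, a box C/D snoRNP protein, was at 0.03 and 0.02 in the DAM gate but at 1.18 and 1.10 in G2/M cells, the highest of the 18 there. In G2/M cells the 18 genes had medians of 0.02 and 0.10, with 9 below 0 in VEH and 8 in LEM, such as *Fbl* at −0.41 and −0.50. There 7 and 6 were at least 1.2-fold higher (background, 38.7% and 37.3%), and 6 were lower in each library (background, 26.7% and 25.7%). The 75 detected mitochondrial ribosomal protein genes had medians of −0.06 and 0.01 in the DAM gate, with 9 higher and 18 lower in VEH and 9 and 10 in LEM. The higher counts are near the background of 14.0% and 13.7%, and the lower ones under that of 47.0% and 47.8%. Of 11 detected genes listed for control of TOP translation or ribosome production, 1 was at least 1.2-fold higher and 5 lower in VEH, and in LEM 0 and 8. The list was not split into activators and repressors, so its counts give no direction of control. The VEH counts are close to the same backgrounds, and the 8 of 11 in LEM are above that of 47.8%, with medians of −0.21 and −0.39. *Rptor*, a subunit of mTOR complex 1, was at −0.50 and −0.59, and *Mtor* at −0.05 and −0.67. Above 0 were 3 of the 11 in VEH and 1 in LEM, with *Rheb* above in both (0.03 and 0.24).

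In LEM over VEH none of the 15 TOP-class genes and none of the 75 mitochondrial ribosomal genes passed 1.2-fold, with medians of 0.05 and 0.02 (background, 2.05% higher and 1.97% lower). All 18 biogenesis genes had a ratio above 0, with a median of 0.09, and *Polr1a*, the largest subunit of RNA polymerase I, passed 1.2-fold at 0.33 (18.4 CPM in VEH and 23.1 CPM in LEM). Above 0 were 17 in female and 16 in male cells, and 3 (background 3.38%) and 0 (background 3.24%) were at least 1.2-fold higher. The 11 detected control genes had a median of −0.02, with 4 above 0 and 7 below. Of them *Myc*, which drives ribosome production, was at 0.42 (60.8 and 81.3 CPM) and alone passed 1.2-fold. In female and male cells the control genes had medians of −0.10 and 0.02.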

How the data were processed

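CD45lo CD11b+ cells were profiled with 10x 5′ single-cell chemistry, 1 pooled library per treatment. The deposited table holds whole-number UMI counts per gene and cell that the authors made with Cell Ranger 8.0.0 and the mm10 reference, with SoupX named for free RNA. All cells had more than 500 genes, under 20000 counts and at most 2.5% mitochondrial counts. Cell names are running numbers, so barcodes shared between libraries could not be counted, and no doublet caller was run. Cells with counts of both *Xist* and Y-linked genes (5.34% of VEH and 7.23% of LEM) were left out in an alternative. Because every cell type uses these genes, no cell type gives their free-RNA level.

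Counts were summed per library, sex and gate and scaled to CPM (Python 3.11.15, numpy 2.4.6, scipy 1.17.1). Ratios are log2, with the exact conditional binomial interval at 95%. Shares have Clopper-Pearson intervals. The floor is 3 counts. A gene counted as detected at 10% of the cells of either group compared. Thinning to 2000 counts left out 1305 VEH and 1215 LEM cells. The calculations were checked on simulated counts. Positions are from GENCODE vM21 (GRCm38), which matched all 81 symbols. Copies were counted as genes sharing 50% of the 31-base words of a member's longest coding sequence, chosen after the ratios were seen. Named genes were the 5 highest and 5 lowest by level and by LEM over VEH ratio, those among the 3 highest or lowest of a gate in both libraries, paralogs, X-linked members and 6 other ribosomal genes. Some listed genes are not reported here. The members and lists were chosen with earlier results of these data known.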

Additional observations from a re-analysis of the deposited data

Results flagged for a closer look

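*Rps2* and *Rps18* had LEM over VEH ratios of opposite sign in female and male cells, with every counting interval clear of 0. The LEM over VEH ratio of *Rps2* was 2.24 higher in female than in male cells on the log2 scale (1.66 and −0.58). That of *Rps18* was 0.48 higher in female than in male cells (0.39 and −0.09). With its 2 near-identical genes added, *Rps18* in male cells stood at 476 CPM in VEH and 478 CPM in LEM, so the lower value in male LEM cells was lost. The difference between the sexes was not tested, since each sex of each treatment is a single pool of mice. No other of the 78 detected members had intervals on opposite sides of 0 and ratios at least 1.2-fold apart.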

How the results depend on the processing

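No paired analysis was possible because each treatment is a single library, and for the same reason no replicate could be left out. The log2 ratio of LEM over VEH in the family's share of counts (0.0613) stayed above 0 under every alternative. It was 0.0679 in homeostatic cells, 0.0584 without cells holding counts of both sexes, 0.102 in female and 0.0150 in male cells, 0.0689 in cells of 4000 to 8000 counts, 0.0597 with the sexes weighted equally, 0.0829 as a mean over cells and 0.0506 with totals taken without the 20 most abundant other genes. As a median over cells, chosen after seeing the data, it was 0.0684. By member, the median ratio came to 0.116 for female cells and to 0.0398 for male ones. Members at least 1.2-fold higher numbered 2 in female cells, and those at least 1.2-fold lower 5 in male cells.

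The DAM over homeostatic ratio of the share depended on how many DAM genes were asked for. With at least 2 genes it was 0.733 in VEH and 0.642 in LEM, and with at least 4 it was 1.01 and 0.896. Gating on thinned counts gave 0.896 in LEM, and weighting by depth bins 0.837 in VEH and 0.764 in LEM. Male cells gave 0.911 and 0.836, and female cells of LEM 0.758. Added after seeing the data, medians over cells gave 0.915 and 0.799, and leaving out cells with counts of both sexes 0.925 and 0.844. The ratio of *Rps2* in male cells was −0.58 and that of *Rps18* −0.0876, both reversed from the pooled value. Of 70 alternatives for 11 named members, 44 stayed within the counting interval, 24 moved and these 2 reversed. Sums with near-identical genes, also added after seeing the data, were among them. The cause of these changes was not tested.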
